A study of Mus musculus with 6 samples.

Results

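Ketone bodies, chiefly 3-hydroxybutyrate and acetoacetate, are made by the liver during fasting and burned as fuel by the heart. They enter cardiomyocytes through monocarboxylate transporters. In mitochondria 3-hydroxybutyrate is oxidized to acetoacetate, acetoacetate takes a CoA group from succinyl-CoA, and acetoacetyl-CoA is then split into acetyl-CoA for the citrate cycle. Failing hearts are known to lean on this fuel when fatty acid oxidation declines.

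The 4 genes described here cover that route and were chosen by name from the 54532 genes of the deposited table, with earlier results of these data known. Bdh1 encodes 3-hydroxybutyrate dehydrogenase, which interconverts 3-hydroxybutyrate and acetoacetate. Oxct1 encodes succinyl-CoA:3-ketoacid CoA transferase, the enzyme that activates acetoacetate and that liver lacks. Acat1 encodes the mitochondrial acetoacetyl-CoA thiolase, which also acts in isoleucine breakdown. Slc16a1 encodes MCT1, a plasma membrane transporter of ketone bodies, lactate and pyruvate.

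RNA was sequenced from the hearts of 6 mice. All 6 carried Mrps5 fl/fl, loxP-flanked alleles of the gene for mitochondrial ribosomal protein S5, and all received tamoxifen by intraperitoneal injection at 45 mg per kg per day for 5 days at 8 weeks of age. The 3 Ctrl mice had no further allele. The 3 cKO mice were Mrps5 fl/fl; MCM, where MCM is the αMHC-driven, tamoxifen-inducible Cre MerCreMer, active in cardiomyocytes. Hearts were taken 12 weeks after tamoxifen. No Ctrl mouse carried MCM, so that presence of the Cre and loss of Mrps5 cannot be told apart in this design. The study's methods name ventricular tissue and give an age at harvest that differs from the one these labels add up to.

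Some facts about the libraries bear on what follows. Each held 15989322 to 24875499 reads assigned to genes, with overlapping totals in the groups. Mrps5 values in the Ctrl hearts were 5.20, 6.45 and 6.33 FPKM (fragments per kilobase of gene, scaled to a library size that was not total reads, as described with the processing). The cKO hearts had 1.12, 1.23 and 1.31 FPKM, so that 20.4% of the Ctrl mean was left (log2 fold change -1.65, SE 0.09, limma adjusted p = 0.000202). The Y-linked gene Ddx3y was at 0 FPKM in cKO replicate 2, which was also the heart with Xist at 10.7 FPKM, whereas Ddx3y was at 12.7 to 17.7 FPKM in the other 5 hearts. By these genes cKO replicate 2 was a female heart and the others male, although the study states that its mice were all male. Sex was thus mixed in cKO alone, and its effect was not tested separately. Myl7, an atrial myosin light chain, ranged from 18.1 to 679 FPKM in Ctrl and from 71.8 to 495 FPKM in cKO hearts, and was highest in Ctrl replicate 1 and cKO replicate 3. All 10 cardiomyocyte markers examined were expressed in every heart. Their summed level was 20565 to 25318 FPKM in Ctrl and 11751 to 18808 FPKM in cKO hearts.

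The genes lie on different chromosomes. Bdh1 (ENSMUSG00000046598) spans positions 31422280 to 31458901 of chromosome 16 on the plus strand and has 7 exons in its longest coding transcript. Oxct1 (ENSMUSG00000022186) spans 4026383 to 4155344 of chromosome 15 on the plus strand, with 17 exons. Acat1 (ENSMUSG00000032047) spans 53580522 to 53610382 of chromosome 9 on the minus strand, with 12 exons. Slc16a1 (ENSMUSG00000032902) spans 104638668 to 104658462 of chromosome 3 on the plus strand, with 5 exons. These are positions in GRCm38, the assembly whose gene ends the table matched.

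Upstream sequence was at hand for 3 of the 4 genes, all but Acat1, and is shown as a description. Whether it bears on the levels of these genes was not tested. Each window runs from 250 to 51 bases before a RefSeq start in GRCm38.p6 and is written 5′ to 3′ on the plus strand. Capitals mark matches, on either strand, to CACGTG (the E-box bound by MYC and MAX), AGGTCA (a nuclear receptor half-site), TGATGNAA (the core of the C/EBP-ATF composite element) and GGGCGG (a GC box). Bdh1 has a pair of annotated starts.
Slc16a1, chr3:104638414-104638613: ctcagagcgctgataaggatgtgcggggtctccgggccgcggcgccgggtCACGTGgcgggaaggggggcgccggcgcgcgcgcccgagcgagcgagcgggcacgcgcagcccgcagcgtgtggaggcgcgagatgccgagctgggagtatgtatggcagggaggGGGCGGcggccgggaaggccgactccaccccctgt
Oxct1, chr15:4026178-4026377: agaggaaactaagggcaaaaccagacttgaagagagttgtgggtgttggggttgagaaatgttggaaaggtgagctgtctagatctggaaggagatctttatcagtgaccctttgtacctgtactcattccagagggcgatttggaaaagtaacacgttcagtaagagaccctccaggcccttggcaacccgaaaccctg
Bdh1, upstream start, chr16:31422047-31422246: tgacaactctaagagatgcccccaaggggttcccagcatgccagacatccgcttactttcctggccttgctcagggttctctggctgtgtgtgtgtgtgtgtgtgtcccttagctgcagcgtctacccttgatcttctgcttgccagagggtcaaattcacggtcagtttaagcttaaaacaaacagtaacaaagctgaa
Bdh1, downstream start, chr16:31428503-31428702: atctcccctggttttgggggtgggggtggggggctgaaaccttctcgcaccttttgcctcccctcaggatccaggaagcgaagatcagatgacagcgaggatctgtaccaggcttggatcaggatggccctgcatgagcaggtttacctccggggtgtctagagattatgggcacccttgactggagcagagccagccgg

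The Slc16a1 window was 76% G and C, against 48% for Oxct1 and 50% and 59% for the Bdh1 starts and a median of 51.5% over all such windows. It held 1 E-box, beginning 200 bases before the start, and 1 GC box, beginning 85 bases before it. Of the 32851 such windows in the reference table, 4.34% held the E-box and 24.6% the GC box. The half-site, present in 11.4% of windows, and the composite core, present in 2.72%, had no match in these 4 windows. A match is a string of letters and not an observed binding site.

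Measured per length of gene, Oxct1 had the highest level of the 4 in every heart, followed by Acat1. Oxct1 ranked between 145 and 156 by FPKM among 12944 genes tested in Ctrl hearts and between 169 and 192 in cKO hearts. Acat1 ranked between 259 and 286 in Ctrl and between 438 and 595 in cKO hearts, which was the largest shift in rank of the 4. Bdh1 and Slc16a1 were neighbours in this order, and their FPKM ranges overlapped in each group. Bdh1 was above Slc16a1 in each Ctrl heart and in cKO replicate 1, and below it in cKO replicates 2 and 3.

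To ask how the enzymes of ketone use fared in cKO hearts, FPKM values were compared between cKO and Ctrl. Bdh1, Oxct1 and Acat1 were lower in cKO and Slc16a1 did not pass the test. Acat1 fell furthest, to 54.1% of its Ctrl mean, whereas Oxct1 was at 79.2% and Bdh1 at 80.2%. That is 3 of 4 genes lower at an adjusted p under 0.05, in a comparison where 17.0% of all genes tested were lower and 33.3% differed in either direction. The groups did not overlap for the same 3 genes, beside 26.4% of all genes tested that were lower and 24.8% that were higher without overlap. The median log2 fold change of the 4 was -0.32, beside -0.02 over all genes tested. Because the 4 were chosen with earlier results of these data known, these contrasts with all genes are a description. All genes are adjusted together by the Benjamini-Hochberg method in limma, on log2(FPKM + 1). The deposited FPKM values imply library sizes of 0.913 to 0.980 times the summed reads in Ctrl and 1.06 times in each cKO heart. Relative to total reads, this lowers the cKO values of every gene against Ctrl. The falls above are therefore larger than they would be on total reads, by an amount that was not computed.

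Values are given for replicates 1, 2 and 3 of each group in that order. For Acat1, the thiolase, the Ctrl hearts had 158, 188 and 159.8 FPKM, and the cKO hearts 78.0, 93.2 and 103 FPKM. The lowest Ctrl heart stood well above the highest cKO heart. The means were 169 ± 16.5 and 91.3 ± 12.4 FPKM (SD, n = 3 each), a log2 fold change of -0.88 (95% confidence interval -1.17 to -0.59, limma adjusted p = 0.00315). Between 4962 and 14668 reads lay behind these values, and 2.95% of all genes tested had a lower log2 fold change. The difference was below the threshold of 0.05 without each of the 6 hearts in turn, with log2 fold changes of -0.97 to -0.78.

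For Oxct1, the CoA transferase, the Ctrl hearts had 301, 347 and 296 FPKM, and the cKO hearts 237, 249.8 and 261 FPKM. The groups did not overlap, and Ctrl replicate 2 stood above the other Ctrl hearts. The means were 315 ± 27.9 and 249 ± 12.0 FPKM (SD, n = 3 each), a log2 fold change of -0.33 (95% confidence interval -0.55 to -0.12, limma adjusted p = 0.0305). This call was near the threshold: with 1 heart left out, whichever it was, the adjusted p rose to between 0.0536 and 0.0848, while the log2 fold change stayed between -0.37 and -0.26.

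Transcripts of Bdh1, the dehydrogenase, measured 49.2, 54.5 and 56.5 FPKM in the Ctrl hearts, against 43.2, 44.9 and 40.4 FPKM in the cKO hearts. Every cKO heart was below every Ctrl heart. The means were 53.4 ± 3.82 and 42.8 ± 2.28 FPKM (SD, n = 3 each), a log2 fold change of -0.31 (95% confidence interval -0.51 to -0.12, limma adjusted p = 0.0279). The call held without Ctrl replicate 1 or cKO replicate 2 and was lost without any of the other 4 hearts, with log2 fold changes of -0.37 to -0.27 and an adjusted p of up to 0.0949. Scaling libraries without mtDNA-encoded genes also ended the call (log2 fold change -0.22, adjusted p = 0.0689). An antisense gene, Gm15743, overlaps Bdh1 in position, and whether counting used strand was not stated. Gm15743 had 9 to 112 reads per heart, against 2840 to 5318 for Bdh1, and fell to 18.4% of its Ctrl mean (limma adjusted p = 0.00154).

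Transcripts of Slc16a1, the transporter, measured 43.6, 51.5 and 37.0 FPKM in the Ctrl hearts, against 34.4, 50.4 and 41.0 FPKM in the cKO hearts. The groups overlapped over most of their range. The means were 44.0 ± 7.26 and 42.0 ± 8.05 FPKM (SD, n = 3 each), a log2 fold change of -0.07 (limma adjusted p = 0.770). Its 95% confidence interval of -0.47 to 0.33 leaves room for changes of the size seen in Oxct1 and Bdh1, and the sign turned when libraries were scaled without mtDNA-encoded genes (0.01) and without Ctrl replicate 2 (0.04) or cKO replicate 1 (0.06).

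**Figure D1:**
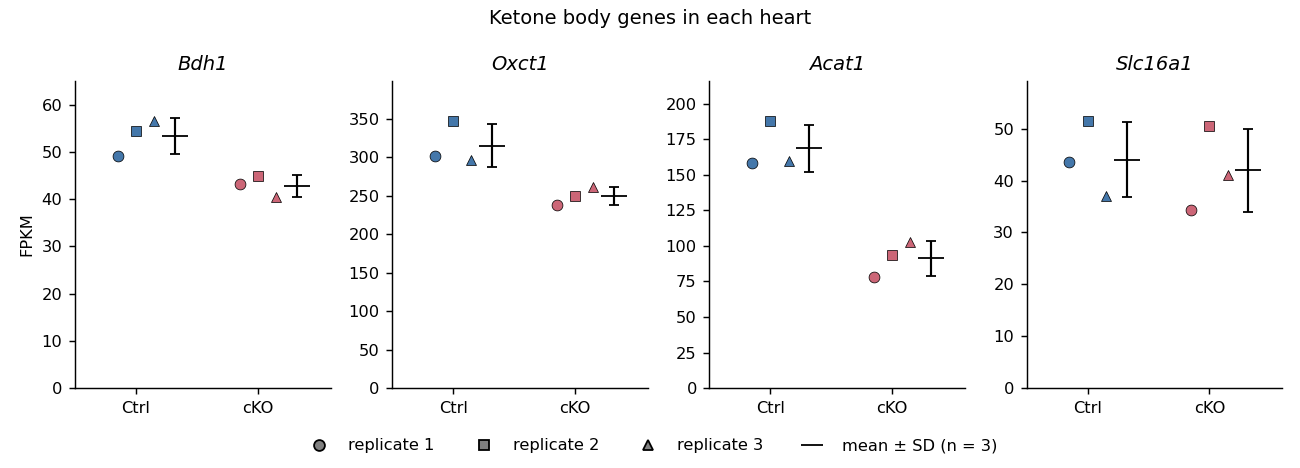
FPKM of Bdh1, Oxct1, Acat1 and Slc16a1 (vertical axes, linear, from 0) in the 3 Ctrl and 3 cKO hearts. Symbols are replicates 1 to 3 and bars are mean ± SD (n = 3). All cKO hearts lie below all Ctrl hearts for Bdh1, Oxct1 and Acat1, with the widest gap for Acat1, and the groups overlap for Slc16a1.

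To see whether the genes moved by the same amount, the ratio of the FPKM of each pair of members was formed within each heart. This cancels library size. The ratio of Acat1 to Oxct1 was 0.526, 0.541 and 0.539 among Ctrl hearts, against 0.329, 0.373 and 0.392 among cKO hearts. The Ctrl hearts were tightly grouped and lay above all cKO hearts (log2 difference -0.56, exact permutation p = 0.1, two-sided). The ratio of Acat1 to Bdh1 went from 3.16 ± 0.312 in Ctrl to 2.14 ± 0.371 in cKO (SD, n = 3 each), also without overlap (log2 difference -0.57, exact permutation p = 0.1). Acat1 over Slc16a1 went from 3.87 ± 0.394 to 2.21 ± 0.331, again without overlap (log2 difference -0.82, exact permutation p = 0.1).

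The ratio of Bdh1 to Oxct1 was 0.163, 0.157 and 0.191 among Ctrl hearts, against 0.182, 0.180 and 0.155 among cKO hearts. Here the groups overlapped, and the log2 difference of 0.02 (exact permutation p = 1) was smaller than the spread between hearts and changed sign with the heart left out. Ratios to Slc16a1 overlapped between groups for Bdh1 (log2 difference -0.24, exact permutation p = 0.4) and for Oxct1 (-0.26, exact permutation p = 0.2). With 3 hearts a group no p under 0.1 can be reached, and adjusted over the 6 pairs the 3 ratios with Acat1 were each at 0.2. Each of those 3 ratios was lower in every cKO heart than in any Ctrl heart, at the smallest p this design allows. The 3 share Acat1 and are not independent, and the share of all gene pairs without overlap was not computed.

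**Figure D2:**
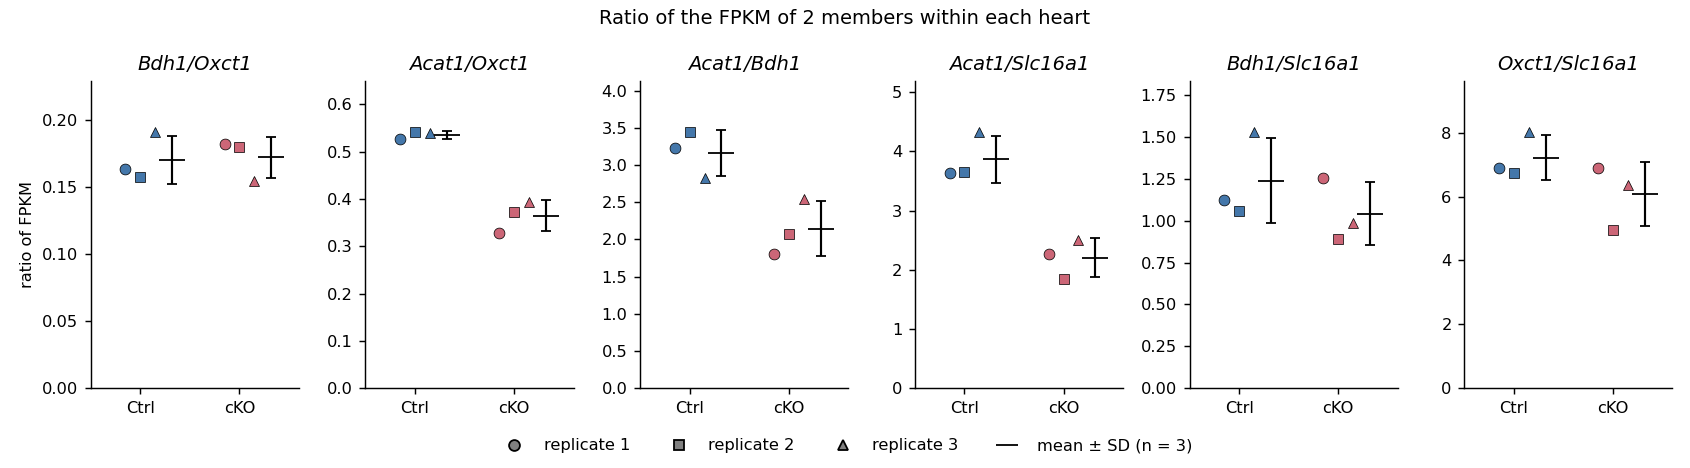
Ratio of the FPKM of 2 members within each heart (vertical axes, linear, from 0), for all 6 pairs. Symbols are replicates 1 to 3 and bars are mean ± SD (n = 3). The 3 ratios with Acat1 on top do not overlap between Ctrl and cKO, and the other 3 overlap.

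Cardiomyocyte markers were themselves lower in cKO, and in bulk tissue fewer cardiomyocytes and less RNA per cardiomyocyte cannot be told apart. Of the 10 markers, 6 fell, none rose, and 4 (Myh6, Actc1, Ttn and Actn2) did not pass. The median log2 fold change was -0.60, with a range from -1.43 (Pln) to -0.11 (Actn2). The log2 difference of their geometric mean was -0.62 (exact permutation p = 0.1). Each member was therefore also expressed relative to the geometric mean of these markers in the same heart. Acat1 was at 18.3%, 18.6% and 17.8% of that mean in the Ctrl hearts, against 15.3%, 13.5% and 16.8% in the cKO hearts. It was lower on this scale too, by a log2 difference of -0.27. Oxct1 went the other way, from 34.1% ± 0.910 to 41.8% ± 5.19 of the marker mean, and Bdh1 from 5.80% ± 0.471 to 7.19% ± 1.10 (SD, n = 3 each). These directions depend on the markers used. By log2 fold change Oxct1 and Bdh1 fell further than Actn2, Actc1 and Ttn, and less than the other markers. Acat1 fell further than all markers but Pln and Mb. The widest difference was that of Slc16a1, from 4.76% ± 0.543 to 6.93% ± 0.348, a log2 difference of 0.55. None of the 4 overlapped between groups on this scale, each at an exact permutation p of 0.1, the smallest possible. Because the marker mean fell, a gene of unchanged FPKM would rise by a log2 difference of about 0.62 here. None of the rises above exceeded that, and the share of all genes without overlap on this scale was not computed.

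**Figure D3:**
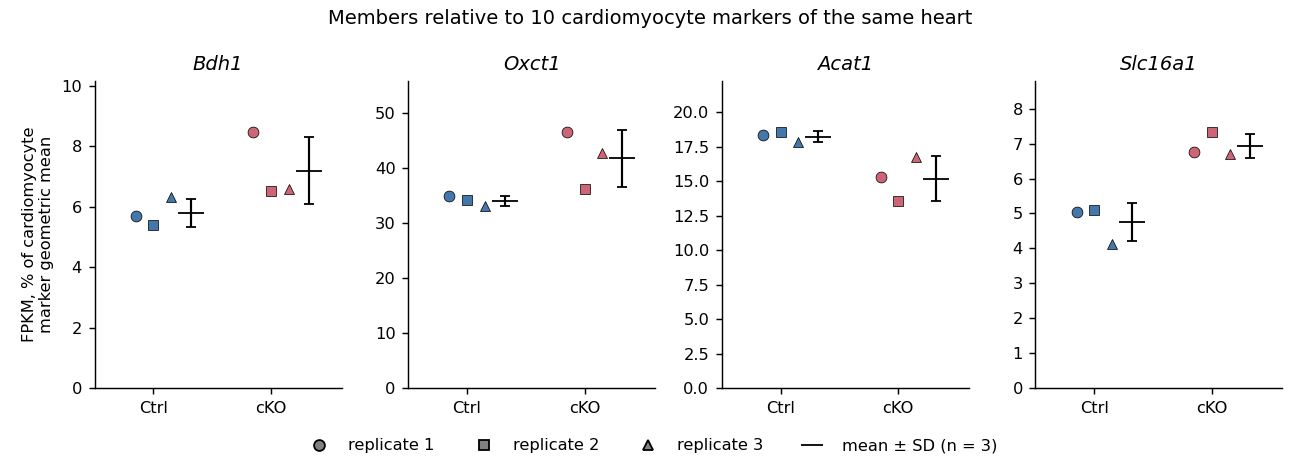
FPKM of each member as a percent of the geometric mean FPKM of 10 cardiomyocyte markers in the same heart (vertical axes, linear, from 0). Symbols are replicates 1 to 3 and bars are mean ± SD (n = 3). Acat1 is lower in every cKO heart than in any Ctrl heart, and Bdh1, Oxct1 and Slc16a1 are higher. The marker mean itself was lower in cKO, so a gene of unchanged FPKM would also be higher on this scale.

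Markers of other cells in the tissue were read in the same hearts. Endothelial markers were lower, with a summed level of 109 to 127 FPKM in Ctrl and 71.2 to 86.0 FPKM in cKO hearts, and 3 of 5 fell. Of the 5 fibroblast markers Col1a1 rose and Dcn fell, with sums of 142 to 165 FPKM in Ctrl and 126 to 136 FPKM in cKO hearts. Sums weigh abundant genes most, and Dcn, at means of 104 FPKM in Ctrl and 69.1 FPKM in cKO hearts, was the largest part. Of 5 macrophage markers Csf1r fell, and the sums of 181 to 238 FPKM and 133 to 198 FPKM overlapped. Of 4 smooth muscle markers 3 were tested and Acta2 rose, at sums of 16.1 to 29.4 FPKM and 28.4 to 54.3 FPKM. Lyz2 and Acta2 were likewise the largest parts of the macrophage and smooth muscle sums. Red cell genes were at 880.4 to 2056 FPKM in Ctrl and at 585 to 1588 FPKM in cKO hearts, and none of the 5 passed in limma, at an adjusted or an unadjusted p under 0.05, or by voom. Atrial markers summed to 128 to 2052 FPKM in Ctrl and to 575 to 1652 FPKM in cKO hearts, and again none of the 4 passed by any of these measures. No marker was at 0 in any heart. The part of these cells in the differences above was not tested, other than by a fit with Myl7 as a covariate. In that fit Acat1 was at a log2 fold change of -0.90 (limma adjusted p = 0.00785) and Bdh1 at -0.28 (0.0446). Oxct1 lost its call, at -0.34 (limma adjusted p = 0.0572), and Slc16a1 was at -0.11 (0.667).

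Around these members, 41 further genes of the pathway and its control were listed, of which 28 were abundant enough to test. Of these, 15 fell, 3 rose and 10 did not pass, with a median log2 fold change of -0.31 beside -0.02 for all genes tested, and 17.0% of all genes tested were lower and 16.3% higher. The list was drawn up with earlier results of these data known. Its counts therefore describe the listed genes and cannot show that the pathway differs from all genes.

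Relatives of the members were scarce. Oxct2a and Oxct2b, testis forms of the CoA transferase, had 0 reads in every heart, and Bdh2 had at most 16. Acat2, the cytosolic thiolase, was at 2.00 ± 0.232 FPKM in Ctrl and at 1.32 ± 0.298 FPKM in cKO hearts (limma adjusted p = 0.0467). Acat3, a close copy of Acat2 with at most 7 reads, was not tested. Aacs, the cytosolic enzyme that activates acetoacetate for lipid synthesis, rose from 1.11 ± 0.132 to 2.36 ± 0.302 FPKM (SD, n = 3 each; log2 fold change 0.67, limma adjusted p = 0.00337). Hmgcs1, the cytosolic synthase of the cholesterol route, was at 5.14 ± 0.220 and 5.48 ± 1.41 FPKM (limma adjusted p = 0.803).

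Movement across the plasma membrane needs transporters and their chaperones. Bsg, the chaperone that carries MCT1 to the membrane, was among the abundant genes at 757 ± 79.7 FPKM in Ctrl and 772 ± 16.8 FPKM in cKO hearts (SD, n = 3 each; limma adjusted p = 0.812). Of 6 other transporters listed, 3 were tested. None of these passed in limma at an adjusted p under 0.05, although all 3 had an unadjusted p under 0.05, and 2 passed by voom on recovered reads. The groups did not overlap for these 3, beside 26.4% of all genes tested that were lower and 24.8% that were higher without overlap. Slc16a3, which encodes the lactate exporter MCT4, measured 0.631, 0.542 and 0.801 FPKM in the Ctrl hearts, against 2.80, 1.498 and 0.987 FPKM in the cKO hearts (log2 fold change 0.69, limma adjusted p = 0.0547). Its values rest on 60 to 252 reads. Slc16a6, which encodes MCT7, was at 1.58 ± 0.423 and 2.45 ± 0.460 FPKM (limma adjusted p = 0.0636), and Slc16a8, which encodes MCT3, at 0.669 ± 0.0700 and 0.394 ± 0.0863 FPKM on 18 to 35 reads (limma adjusted p = 0.0589). Slc16a6 overlaps Amz2 and Arsg in position. The receptors for these metabolites, Hcar1, Hcar2 and Ffar3, had at most 5 reads in any heart.

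Genes next to the ketone route were mostly lower. Succinyl-CoA, the CoA donor for OXCT1, is also used by succinyl-CoA ligase. Its ATP-forming subunit gene Sucla2 fell from 154 ± 14.2 to 95.4 ± 5.88 FPKM (SD, n = 3 each; log2 fold change -0.69, limma adjusted p = 0.00302), the shared subunit gene Suclg1 fell to 82.9% of Ctrl (adjusted p = 0.0299), and the GTP-forming Suclg2 was at 84.5% (adjusted p = 0.106). Of the other thiolases, Acaa2 of mitochondrial β-oxidation fell from 546 ± 9.68 to 295 ± 11.9 FPKM (log2 fold change -0.89, limma adjusted p = 0.000802), so that it was left at 54.0% of Ctrl beside 54.1% for Acat1. Scp2, whose protein joins sterol transfer to a peroxisomal thiolase, fell to 60.2% (adjusted p = 0.00156), and Hadhb, the thiolase subunit of the trifunctional protein, to 75.4% (adjusted p = 0.00892). Peroxisomal Acaa1a was at 95.0% (adjusted p = 0.594). All 4 genes of lactate and pyruvate handling passed as lower, beside 17.0% of all genes tested, though the call of Ldha held in only 5 of 16 alternatives. Ldhb, the heart form of lactate dehydrogenase, went from 884 ± 49.0 to 569 ± 25.6 FPKM (adjusted p = 0.00276). Ldha was at 78.1% of Ctrl (adjusted p = 0.0468, and between 0.0181 and 0.142 over its alternatives), and Mpc1 and Mpc2, which form the mitochondrial pyruvate carrier, went to 71.0% and 72.4% (adjusted p = 0.0108 and 0.00784).

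Regulators of the fuel genes were split. Ppara, the fatty acid sensor that drives ketogenic genes, fell from 10.6 ± 1.42 to 6.78 ± 0.283 FPKM (SD, n = 3 each; limma adjusted p = 0.00713). Its coactivator gene Ppargc1a fell to 62.2% of Ctrl (adjusted p = 0.0143) and Mlxipl, the carbohydrate response factor, to 45.4% (adjusted p = 0.00726). Klf15 fell to 47.8% of Ctrl and Myc rose to 369.9% (limma adjusted p = 0.0137 and 0.00922). Ppard rose to 128% of Ctrl (limma adjusted p = 0.0435). Esrra was at 88.7% (adjusted p = 0.1504) and Sirt3, the mitochondrial deacetylase, at 85.2% (adjusted p = 0.0928), neither past the threshold. Sucla2, Scp2, Acaa1a, Mpc1, Esrra and Sirt3 overlap other genes in the annotation, and reads could be shared between them. With any 1 heart left out, Acat2 and Ppard lost their calls, at limma adjusted p of up to 0.134 and 0.128. Suclg1 kept its call only without cKO replicate 2 (adjusted p otherwise up to 0.0958) and Ldha only without Ctrl replicate 1 (otherwise up to 0.142). Ppargc1a lost its call without Ctrl replicate 2 or 3 (0.0503 and 0.0512). Slc16a3 passed without cKO replicate 3 (0.0212) and Slc16a6 without Ctrl replicate 2 (0.0372), both in limma.

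**Figure D4:**
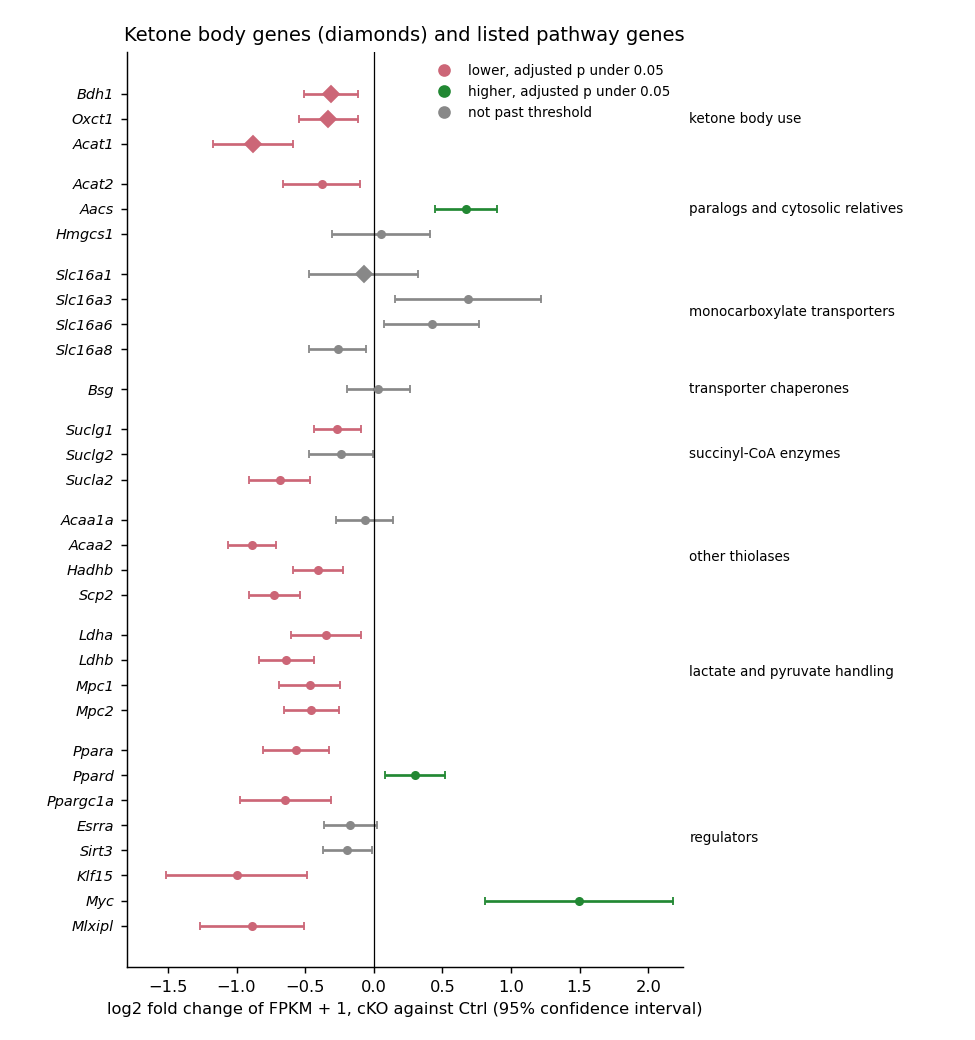
Log2 fold change of FPKM + 1 in cKO against Ctrl (horizontal axis) with 95% confidence interval for the 4 members (diamonds) and the tested pathway genes described here (circles), grouped by list. Red marks genes lower, green genes higher and grey genes not past an adjusted p of 0.05 in limma. Among the members Acat1 lies furthest from 0 at -0.88, close to Acaa2 at -0.89, and Slc16a1 lies at -0.07.

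The genes most alike in pattern were found by Pearson's r with each member over the 6 hearts on log2(FPKM + 1), among 5512 protein-coding genes averaging 5 FPKM or more. These r values include the difference between groups and are a description. For Acat1 the closest were Dele1, whose protein relays mitochondrial stress to the cytosol (r = 0.999), Fyco1 (r = 0.998) and Macrod1 (r = 0.998), and 488 genes had r over 0.95. Dele1 fell from 54.9 ± 6.17 to 29.8 ± 4.23 FPKM (SD, n = 3 each; log2 fold change -0.86, limma adjusted p = 0.00376). For Oxct1 they were Atp5o, a subunit of ATP synthase (r = 0.995), Mpc1 (r = 0.994) and Oaz1 (r = 0.994), and 231 genes had r over 0.95. For Bdh1 they were Clk4 (r = 0.990), Fdx1 (r = 0.988) and Mrps31 (r = 0.975), with 34 genes over 0.95. For Slc16a1 they were Paqr9 (r = 0.987), Dcxr (r = 0.978) and Irx4 (r = 0.958), with 6 genes over 0.95, and the log2 fold changes of these were -0.07, -0.05 and -0.04.

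The strength of each member's difference was compared across 16 other ways of computing it, among them 6 fits that each lacked 1 heart. Acat1 was past the threshold in all 16, Bdh1 in 9 and Oxct1 in 6, and all were negative throughout. Slc16a1 was past it in none, and its sign was not fixed.

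**Figure D5:**
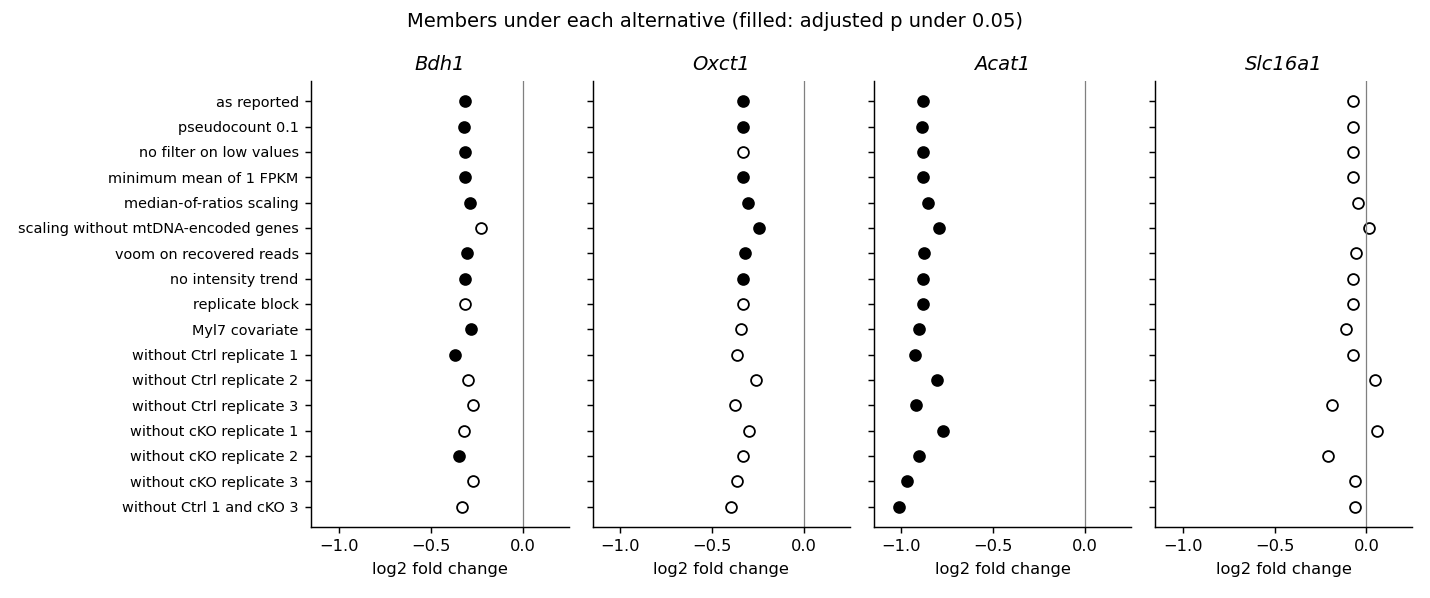
Log2 fold change of each member (horizontal axes) as reported and under 16 alternatives (vertical axis). Filled circles have a limma adjusted p under 0.05 and open circles do not. Acat1 is filled throughout, Bdh1 and Oxct1 keep their side of 0 with open circles for 7 and 10 alternatives, and Slc16a1 lies on either side of 0.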

How the data were processed

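RNA of 3 Ctrl and 3 cKO hearts was sequenced as poly-A selected, paired-end libraries. Per the labels and the study's methods, the authors aligned reads with HISAT2 2.0.5, counted them per gene with featureCounts 1.5.0-p3, and computed the deposited FPKM values from read count and gene length (the gene length column is an other, gene-level value deposited with them). The labels name build mm9, yet of 54495 gene identifiers shared with GENCODE M21 (GRCm38) none differed in chromosome and 53585 matched exactly in start and end. FPKM times gene length gave whole reads for 100% of values (tolerance 0.01 reads). The library size implied by the FPKM scaling was 0.913 to 0.980 times the summed reads in Ctrl and 1.06 times in each cKO heart. The deposited values thus carry a scaling beyond total reads that differs by group. Relative to total reads it lowers the cKO values of every gene against Ctrl. No fit scaled to total reads was run. The small falls of Bdh1 and Oxct1 would be smaller on that scale, and whether their calls would hold was not tested. Columns were assigned to samples by name.

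FPKM values were put on a log2(FPKM + 1) scale, on which changes of low genes are understated. The 12944 genes averaging 0.5 FPKM or more were compared by a two-sided test in limma 3.58.1 under R 4.3.3, with an intensity trend and group as the only term. P-values were adjusted over these genes (Benjamini-Hochberg) and read at 0.05. The fit was checked on simulated tables whose changes were larger than those of the members. That check does not cover calls of the size of Bdh1 and Oxct1. Ratios were compared by exact permutation (SciPy 1.17.1). Named genes are the members, Mrps5, the listed genes that could be tested and the 3 genes most like each member, besides Gm15743 and scarce listed genes, and some library checks. Some listed genes enter the counts but are not reported here. The members and lists were chosen with earlier results of these data known. Upstream windows came from RefSeq (GRCm38.p6). Same-numbered hearts were not treated as pairs. Replicates are separate hearts per the series' design text. Alternatives were another pseudocount, filter, scaling, variance model, covariate or block, voom, and left-out hearts.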

Additional observations from a re-analysis of the deposited data

How the results depend on the processing

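Acat1 and Mrps5 kept direction and call under all 16 alternatives run for each, at log2 fold changes of -1.01 to -0.78 and -2.26 to -1.59. Bdh1 lost its call when libraries were scaled without mtDNA-encoded genes (-0.22), with the replicate block (-0.31, limma adjusted p = 0.0581) and without Ctrl replicate 1 and cKO replicate 3 together (-0.33). That last alternative was chosen after seeing the data and drops the heart of each group with the most Myl7. Bdh1 ranged from -0.37 to -0.27 when 1 heart was left out. Oxct1 lost its call with no filter on low values (-0.33), the replicate block (-0.33, limma adjusted p = 0.0566), the Myl7 covariate (-0.34) and without those 2 hearts (-0.40), and ranged from -0.37 to -0.26 without 1 heart. Fits that lack a heart rest on fewer samples and the unfiltered fit tests more genes. The cause of the lost calls was not tested for any of these alternatives. Slc16a1 turned to 0.0149 when mtDNA-encoded genes were left out of the scaling and ranged from -0.21 to 0.0587 without 1 heart. The Bdh1 to Oxct1 ratio ranged from a log2 difference of -0.0403 to 0.0996 without 1 heart, and the other 5 ratios kept their sign.

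Among the 28 other pathway genes, 446 comparisons gave 383 with an unchanged call, 49 with a lost and 10 with a gained call. The 4 reversals were in Hmgcs1, which ranged from -0.109 to 0.199 without 1 heart, Bsg, which ranged from -0.0296 to 0.116 and was at -0.0144 without the 2 hearts, and Acaa1a, which was at 0.0168 by the scaling without mtDNA-encoded genes. Leaving out 1 heart could take Slc16a8 below the filter, which then gave no value. The count of lower genes went from 15 to 9 without the 2 hearts, and that of higher genes from 3 to 5 by that scaling and by voom and to 1 without the 2 hearts.

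Over all genes, that scaling gave 1623 lower and 2647 higher genes against 2205 and 2110, and moved the median log2 fold change from -0.02 to 0.05. Leaving out 1 heart gave 1423 to 2011 lower and 1396 to 1977 higher genes, with fewest lower without Ctrl replicate 2 and fewest higher without Ctrl replicate 3, and leaving out the 2 hearts gave 1019 and 995. The replicate block gave 1982 lower and 1874 higher genes. Deviations of same-numbered hearts correlated at -0.06, 0.17 and -0.01, so that the numbers were not taken as pairs. Depth limits the tested pathway genes with few reads, among them Slc16a8 (18 to 35 reads) and Acat2 (58 to 110 reads).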
